A study of Homo sapiens with 6 samples.

Results

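The transcripts described here are those whose array probe sets lie around SMAD3 in the identifier order of an Affymetrix whole-transcript array, measured in TPC-1, a human cell line derived from papillary thyroid carcinoma. A probe set is the group of probes that reads 1 transcript cluster, and the identifiers used here run along 1 strand of chromosome 15. Members were all probe sets numbered up to 150 steps before or after the SMAD3 probe set (TC1500007633.hg.1), whether or not they carry a gene name, without SMAD3 itself and its relative SMAD6. That gave 294 members among the 138745 probe sets of the series, 63 with 1 gene symbol and 231 without; 5 identifiers in the range have no values and were not analysed here. The si-SMAD3 group was TPC-1 cells harvested 24 h after transfection with 25 pmol of an siRNA against SMAD3, and the si-Control group was the same cells given a control siRNA in the same way. Each group had 3 arrays, from experiments done on 3 separate occasions with the same cell line, so p-values measure the spread between repeats of 1 line. No added TGF-beta is named in the labels. All levels and differences are log2 values, and each difference is si-SMAD3 minus si-Control.

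An siRNA guides the RNA-induced silencing complex to transcripts that match it, chiefly in the cytoplasm, and the matched mRNA is cut and degraded. The neighbours of the targeted gene make their own transcripts from their own promoters and are not matched by design, although an siRNA can also lower unrelated transcripts that pair with its seed. SMAD3 is a transcription factor of the TGF-beta pathway: activated receptors phosphorylate it, it enters the nucleus, and it binds DNA at short CAGAC boxes. Its neighbours on this strand include genes for the MEK1 and MEK5 kinases (MAP2K1 and MAP2K5), the SUMO ligase PIAS1, the mitotic proteins ZWILCH and KIF23 and the ribosomal protein RPLP1. The question put to the data was whether the change seen at SMAD3 extended to transcripts encoded around it.

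The promoters of SMAD3, of the nearest tested protein coding members before and after it (ZWILCH and IQCH) and of the tested protein coding member with the smallest p (MAP2K1) are shown because SMAD3 binds DNA itself, so that its box can be looked for beside the members that lie closest to it. Each is a stretch of 300 bases, 5′ to 3′, that spans the gene's first listed start, from RefSeq on GRCh38.p14. Capitals mark the CAGAC box, or GTCTG, the same box on the other strand.
MAP2K1, chr15:66386662-66386961, plus strand: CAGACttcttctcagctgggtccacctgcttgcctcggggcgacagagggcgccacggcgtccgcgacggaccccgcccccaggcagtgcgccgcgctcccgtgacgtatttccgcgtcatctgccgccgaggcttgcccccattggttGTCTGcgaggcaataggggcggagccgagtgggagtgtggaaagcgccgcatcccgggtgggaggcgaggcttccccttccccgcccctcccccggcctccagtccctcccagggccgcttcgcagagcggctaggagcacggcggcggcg
ZWILCH, chr15:66505076-66505375, plus strand: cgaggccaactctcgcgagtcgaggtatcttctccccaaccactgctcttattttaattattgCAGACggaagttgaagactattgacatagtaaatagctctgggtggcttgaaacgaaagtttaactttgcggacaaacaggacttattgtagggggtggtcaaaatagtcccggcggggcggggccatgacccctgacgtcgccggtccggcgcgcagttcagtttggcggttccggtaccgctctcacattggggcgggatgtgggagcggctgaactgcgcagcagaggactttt
SMAD3, chr15:67065352-67065651, plus strand: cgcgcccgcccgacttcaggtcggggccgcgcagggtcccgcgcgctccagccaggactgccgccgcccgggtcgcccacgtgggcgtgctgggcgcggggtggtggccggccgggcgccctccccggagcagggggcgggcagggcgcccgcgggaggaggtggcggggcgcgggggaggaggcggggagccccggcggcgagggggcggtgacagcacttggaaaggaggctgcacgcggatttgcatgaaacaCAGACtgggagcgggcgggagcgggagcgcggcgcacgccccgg
IQCH, chr15:67254536-67254835, plus strand: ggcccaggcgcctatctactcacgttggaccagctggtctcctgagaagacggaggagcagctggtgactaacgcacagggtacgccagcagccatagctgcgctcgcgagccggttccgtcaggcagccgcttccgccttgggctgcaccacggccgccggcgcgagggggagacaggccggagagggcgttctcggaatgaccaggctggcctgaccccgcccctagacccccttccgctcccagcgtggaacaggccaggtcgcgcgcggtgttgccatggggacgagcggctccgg

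The MAP2K1 promoter held 2 such boxes, the ZWILCH and SMAD3 promoters 1 each and the IQCH promoter 0. MAP2K1 was picked by its p in these same data, so its count of boxes tests nothing. That p came from its probe set with the lower signal (difference 0.72, unadjusted p = 0.018 by limma). Its other probe set differed by -0.38. Both strands were searched and overlapping matches were counted. Of 24 tested protein coding genes of the region with a plus-strand entry, 10 (41.7%) held at least 1 box in the first promoter listed, against 45.3% of all 35116 promoters of this length in the table. The longer palindrome GTCTAGAC, which contains neither form of the box, was in 0 of the 24 and in 0.2% of all promoters. A match is a run of letters, not a measured binding site.

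Within the range, the identifiers of the named members did follow the chromosome. Of the named members, together with SMAD3 and SMAD6, 58 genes were found on chromosome 15 in the RefSeq gene table of GRCh38.p14, and in identifier order only 1 step ran against their start positions, at the 5S pseudogene RNA5SP399. Of 37 with a promoter entry, 35 lay on the plus strand. The exceptions were TLE3 and MYO9A, so the probe sets bearing those names sit in the identifier order of the strand opposite to the gene. The files hold no position for the unnamed members, and whether an unnamed cluster lies inside a neighbouring gene cannot be told from them. No source used here names the genome build behind the array's identifiers. The check covered only identifiers inside the range, so transcripts near SMAD3 that are numbered elsewhere would be missed. On the opposite strand, genes close to SMAD3 on the same side had distant numbers, such as TC1500009830.hg.1 (LCTL) and TC1500010883.hg.1 (SNAPC5).

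SMAD3 itself fell in all 3 experiments. Its level was 10.58, 10.03 and 10.27 in the si-SMAD3 arrays, against 14.20, 14.21 and 14.67 in the si-Control arrays. The difference was -4.06 (SE 0.23, 95% interval -4.59 to -3.54), 16.7-fold lower if the scale is plain log2, and limma gave an adjusted p of 0.0096 over the 66776 probe sets tested. It was the only probe set of the 66776 past the adjusted threshold of 0.05 (0.0015% of those tested). The call rests on all 6 arrays: with the experiment as a block the adjusted p was 0.18, without both replicate 2 arrays it was 0.82, and leaving out any 1 array moved it above the threshold. It was then 0.058, 0.095 and 0.16 without si-SMAD3 replicate 1, 2 and 3, and 0.0998, 0.10 and 0.079 without si-Control replicate 1, 2 and 3, while the difference itself ran from -4.21 to -3.91. By exact permutation of the 6 arrays p was 0.1, the smallest that 3 against 3 allow. SMAD6, the inhibitory SMAD 14 steps before SMAD3, was at 3.95, 4.54 and 4.11 with si-SMAD3 and at 4.66, 4.57 and 4.55 with si-Control. The difference was -0.39, without overlap between the groups (adjusted p = 0.93 by limma).

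None of the members passed the test. Of the 294, 170 had a mean level at or above 3.93, the median of all probe sets, and were tested; the other 124 were below it. Among the 170 the smallest adjusted p by limma was 0.87, and 11 had an unadjusted p under 0.05, 8 with higher and 3 with lower values in the si-SMAD3 arrays. That is 6.47% of the members, beside 5.38% of all probe sets tested (2.73% higher and 2.65% lower). The groups did not overlap for 15 members (10 higher, 5 lower), 8.82% of them, beside 10.3% of all tested (5.46% higher and 4.84% lower). The median difference was 0.04 over the members, 0.01 over the 2135 other tested probe sets with chromosome 15 identifiers and 0.01 over all tested. Members above 0 numbered 93 and those below 0 numbered 77. The median level of the members was 5.61, 5.69 and 5.62 on the si-SMAD3 arrays and 5.47, 5.54 and 5.42 on the si-Control arrays. Over all tested probe sets it was 5.34, 5.33 and 5.33 on the si-SMAD3 arrays and 5.32, 5.32 and 5.31 on the si-Control arrays. Within the experiments the median of the members' own differences was 0.05, 0.03 and 0.06. The 124 members below the filter had differences from -0.46 to 0.60, with 62 of them above 0.

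**Figure D1:**
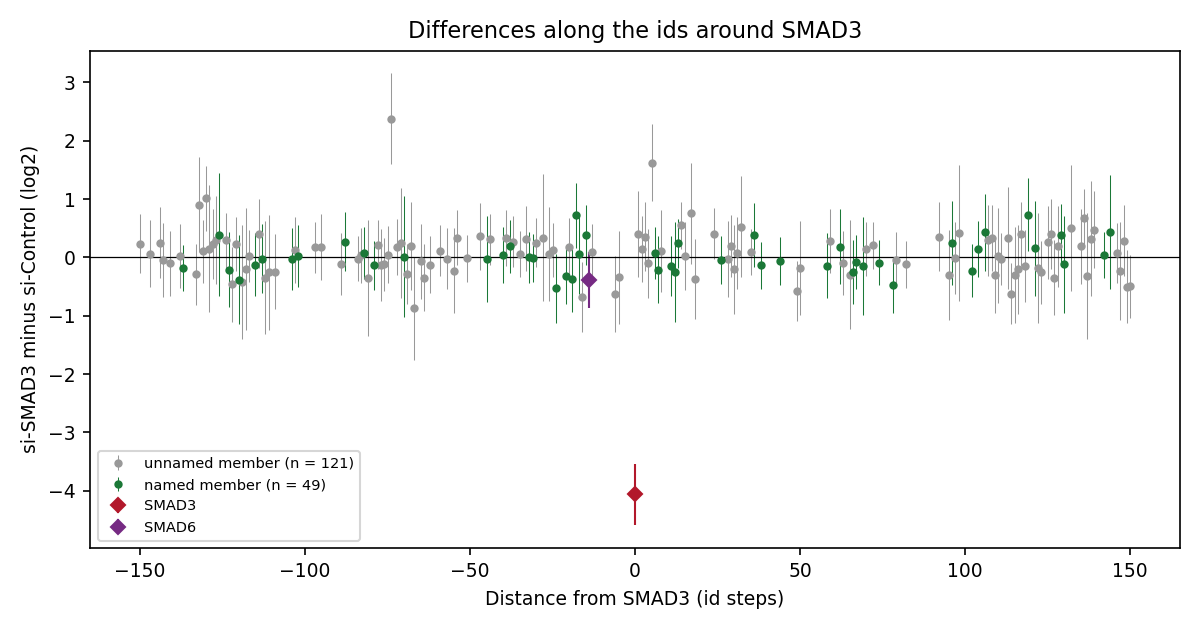
Difference between si-SMAD3 and si-Control (log2) for the 170 tested members, SMAD3 and SMAD6, by distance from SMAD3 in identifier steps; points are means of 3 arrays minus 3 arrays and bars are 95% intervals from limma. SMAD3 lies at -4.06 and the lowest member at -0.87, while 1 unnamed member 74 steps before SMAD3 lies at 2.38.

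No member approached the size of the SMAD3 change in the same direction. The lowest member difference was -0.87, in an unnamed cluster 67 steps before SMAD3 (TC1500007566.hg.1), whose levels of 3.95, 5.38 and 4.92 in the si-SMAD3 arrays overlapped those of 5.16, 5.82 and 5.89 in the si-Control arrays. Over the 170 members the lowest bound of any 95% interval was -1.76, against an upper bound of -3.54 for SMAD3. A change of 4.06 could be seen in full only in transcripts well above the filter. The 36 members with a control mean of 7.99 or more had that room, and their differences ran from -0.38 to 0.41, with 17 above and 19 below 0 and interval bounds between -1.13 and 1.14. The median half-width of the members' intervals, which are not adjusted for the number of tests, was 0.57. Changes smaller than about that size could not be resolved in a typical member. Far larger ones could still miss the adjusted threshold: the member with a difference of 2.38 had an adjusted p of 0.87 by limma.

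Distance from SMAD3 did not order the differences. Across the 170 members the size of the difference and the number of steps had a Spearman correlation of 0.07; these points share the same 6 arrays, and no test is given. The 54 tested members within 50 steps had a median difference of 0.07, with 33 above and 21 below 0, and the 116 beyond 50 steps had 0.03, with 60 above and 56 below 0. Split by side, the medians in successive classes of up to 10, 25, 50, 100 and 150 steps were -0.49 (2 members), 0.07 (10), 0.22 (14), -0.00 (28) and 0.03 (32) before SMAD3. After SMAD3 they were 0.13 (8 members), 0.13 (8), -0.04 (12), -0.09 (19) and 0.14 (37). The class of largest size held 2 members, both just before SMAD3.

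**Figure D2:**
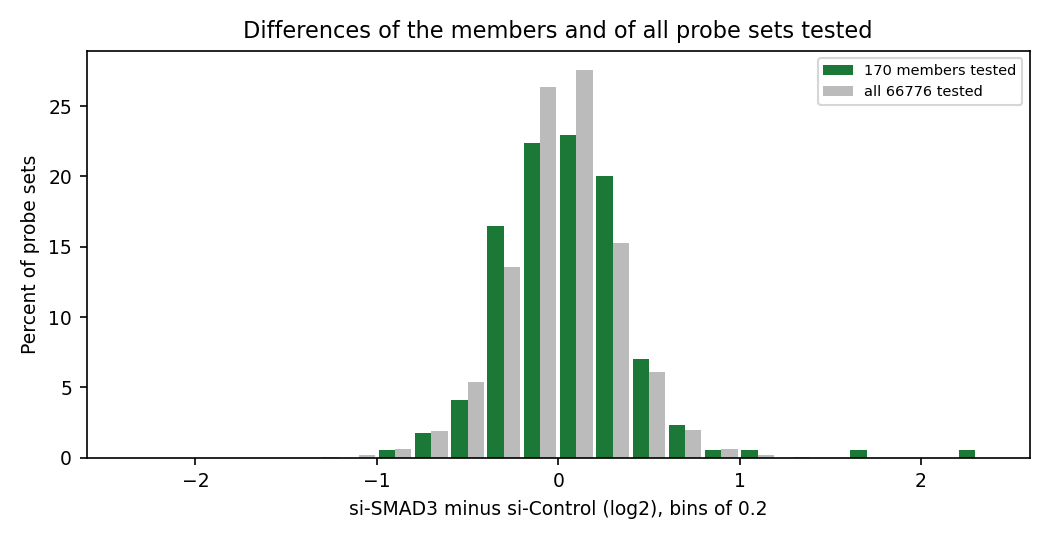
Share of probe sets (percent) by difference between si-SMAD3 and si-Control in bins of 0.2 on the log2 scale, for the 170 tested members (green) and all 66776 tested probe sets (grey); SMAD3 lies outside the range drawn. The bulk of both lies within 0.6 of 0, and 3 members lie at 1 or more.

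Between SMAD6 and SMAD3 there were 13 members, all unnamed, of which 3 reached the filter, and their mean levels ran from 2.87 to 6.31. The one with the highest signal, 5 steps before SMAD3 (TC1500007628.hg.1), was at 5.71, 6.83 and 5.88 with si-SMAD3 and at 6.03, 6.66 and 6.76 with si-Control, a difference of -0.34. Its neighbour 6 steps before SMAD3 (TC1500007627.hg.1) was at 4.29, 4.19 and 4.52 with si-SMAD3 and at 5.11, 5.38 and 4.38 with si-Control, a difference of -0.63 (adjusted p = 0.92 by limma). Replicate 3 of si-Control lay among the si-SMAD3 values, so the groups overlapped. The 10 untested members within 10 steps had means between 2.98 and 3.73 and differences between -0.30 and 0.08.

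Directly after SMAD3, 4 unnamed clusters in a row had signals well above the filter and did not share its change. The first of them (TC1500007634.hg.1) was at 8.65, 8.78 and 9.21 with si-SMAD3 and at 9.14, 8.26 and 8.02 with si-Control, a difference of 0.41 (95% interval -0.33 to 1.14). The next (TC1500007635.hg.1) was at 8.38, 7.79 and 8.56 with si-SMAD3 and at 8.29, 7.94 and 8.07 with si-Control, a difference of 0.14 (95% interval -0.42 to 0.71). The groups overlapped in both, with the lowest bound far above the upper bound of -3.54 for SMAD3. The cluster after it (TC1500007636.hg.1) differed by 0.36 (95% interval -0.24 to 0.95) and the last of the 4 (TC1500007637.hg.1) by -0.10 (95% interval -0.69 to 0.48), from control means of 7.05 and 8.32. In all 4 the 95% interval lay wholly above that of SMAD3. The cluster with a control mean of 7.05 was below the 7.99 needed to show the SMAD3 drop in full.

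**Figure D3:**
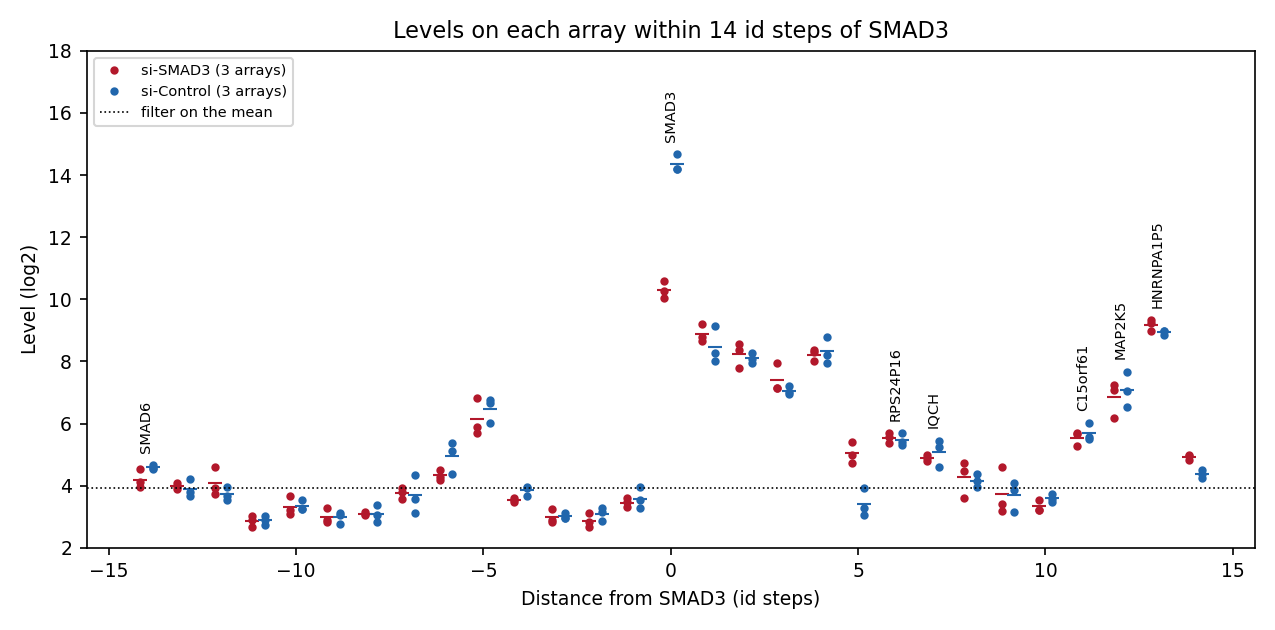
Level (log2) on each of the 6 arrays for every probe set within 14 identifier steps of SMAD3, si-SMAD3 arrays in red at the left of each position and si-Control arrays in blue at the right, with dashes at the group means and a dotted line at the filter of 3.93. Among these probe sets the groups are set apart by about 4 log2 units at SMAD3, and the cluster 5 steps after it is higher in all 3 si-SMAD3 arrays. The groups also do not overlap for the cluster 14 steps after SMAD3 (higher with si-SMAD3). The same holds, with lower values, for SMAD6 and for the untested cluster 4 steps before SMAD3.

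The fifth cluster after SMAD3 (TC1500007638.hg.1, unnamed) had higher values in the si-SMAD3 arrays. It was at 5.42, 4.74 and 4.98 with si-SMAD3 and at 3.05, 3.93 and 3.28 with si-Control. The groups did not overlap, and the difference was 1.63 (95% interval 0.96 to 2.29). The si-SMAD3 mean was 5.05 and the si-Control mean 3.42, below the filter of 3.93, so this cluster was tested only through its si-SMAD3 values. Within the experiments it differed by 2.37, 0.81 and 1.70. Its adjusted p by limma was 0.92 (unadjusted p = 0.00052, rank 29 of 66776 tested), and over the 13 alternative settings the adjusted p ran from 0.66 to 0.99. The next transcripts on that side were the pseudogene RPS24P16 (0.07) and IQCH, an IQ-motif gene best known from testis, at 4.80, 4.88 and 4.99 with si-SMAD3 and at 5.25, 5.45 and 4.60 with si-Control (difference -0.21). An unnamed cluster 8 steps after SMAD3 (TC1500007641.hg.1) differed by 0.11.

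The largest difference of the region lay further away, 74 steps before SMAD3, in an unnamed cluster (TC1500007559.hg.1) between the identifiers of ZNF609 and the U6 pseudogene RNU6-549P. It was at 6.87, 5.76 and 6.50 with si-SMAD3 and at 4.42, 3.58 and 3.99 with si-Control. Every si-SMAD3 value lay above every si-Control value, and the 3 experiments differed by 2.45, 2.18 and 2.51. The difference of 2.38 (95% interval 1.60 to 3.16) was the second largest increase of the 66776 probe sets tested, and the adjusted p by limma was 0.87 (unadjusted p = 0.00012, rank 9), which did not pass. Over the 13 alternative settings the difference ran from 2.13 to 2.69 and the adjusted p from 0.33 to 0.99. Its neighbours did not share it. The unnamed cluster 1 step before it (TC1500007558.hg.1), at a mean of 17.01 the highest signal among the members, differed by 0.05, and those 1 and 2 steps after it (TC1500007560.hg.1, below the filter, and TC1500007561.hg.1) differed by 0.25 and 0.17.

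Another unnamed cluster, 130 steps before SMAD3 (TC1500007503.hg.1), lay between the identifiers of the microRNA genes MIR6085 and MIR190A. It was at 5.16, 4.60 and 4.64 with si-SMAD3 and at 3.50, 4.07 and 3.79 with si-Control, a difference of 1.01 with an adjusted p of 0.92 by limma (unadjusted p = 0.0031). Its groups did not overlap either, and with a si-SMAD3 mean of 4.80 and a si-Control mean of 3.79 it too was tested only through its si-SMAD3 values. The clusters on its 2 sides differed by 0.10 and 0.15. These 3, of which 2 entered the test only in that way, were the members with an unadjusted p under 0.01 (1.76% of those tested, beside 0.982% of all) and the members at 1 or more (1.76%, beside 0.261% of all), while none lay at -1 or less (0.311% of all). The second and the sixth largest increases among all tested probe sets were thus both members of this region, a description of 2 unnamed clusters and not a test of the region.

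**Figure D4:**
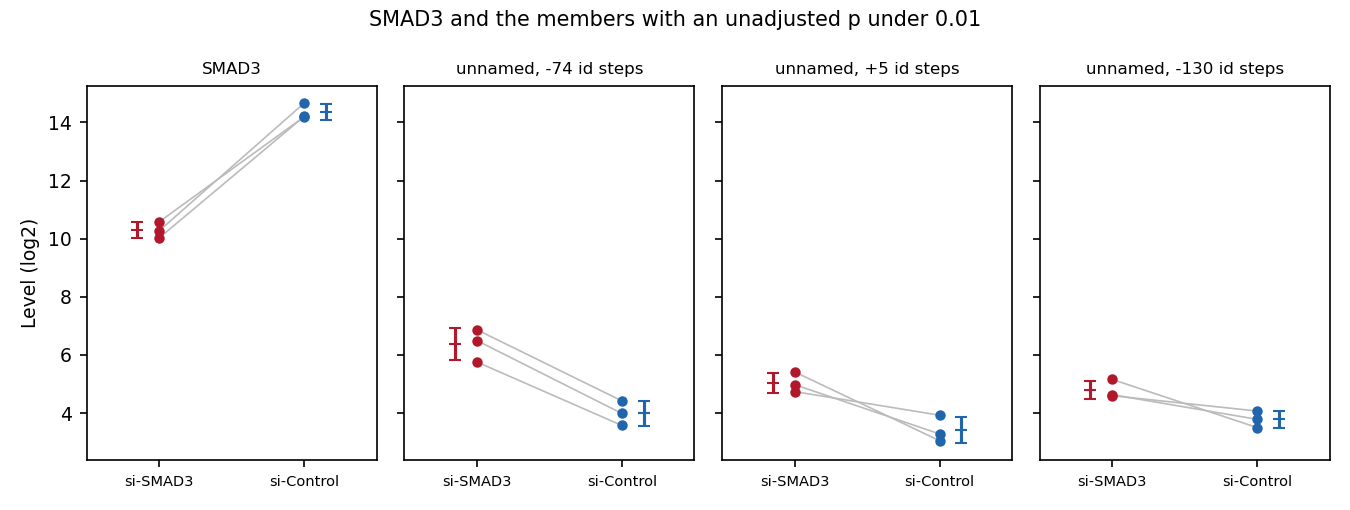
Level (log2) on each array for SMAD3 and for the 3 members with an unadjusted p under 0.01, si-SMAD3 at the left and si-Control at the right; grey lines join arrays of the same experiment and bars are means with SD (n = 3). SMAD3 is lower in each experiment and the 3 unnamed clusters are higher in each.

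The tested protein coding genes named in the range were called in neither direction. The range held 34 such genes by name, 28 of them tested with 32 probe sets. Of these probe sets 10 lay above 0 and 22 below, beside 51.9% above 0 among all tested. Their median was -0.07 and their range -0.47 to 0.73. The counts take in the probe sets named TLE3 (-0.47, the lowest) and MYO9A (-0.12), which stand in the identifier order of the opposite strand. The coding genes are described below by their roles, in lists chosen with earlier results of these data known. Some listed genes had no named probe set in the range, and nothing is said of them. Of 6 genes listed for membrane traffic 4 had 1, and of 12 listed for transport, metabolism and others 7 did. In every list 0 members passed over all probe sets.

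Kinases and enzymes of ubiquitin-like modifiers had 5 tested probe sets, 2 above and 3 below 0. MAP2K1, the kinase that activates ERK, was read by 2 probe sets that disagreed. The one with the higher signal was at 7.99, 7.85 and 8.21 with si-SMAD3 and at 7.96, 8.46 and 8.76 with si-Control, a difference of -0.38 (adjusted p = 0.94 by limma). The other, 1 step on, was at 5.13, 4.48 and 4.97 with si-SMAD3 and at 4.41, 3.88 and 4.13 with si-Control, a difference of 0.72 with no overlap (adjusted p = 0.92 by limma). MAP2K5, which activates ERK5 and whose identifier lies 12 steps after SMAD3, differed by -0.25. PIAS1, a SUMO ligase that also acts on transcription factors, was at 13.72 ± 0.10 with si-SMAD3 and 13.76 ± 0.14 with si-Control (SD, n = 3), a difference of -0.04. SENP8, the protease that acts on NEDD8, differed by 0.43, and its values of 7.03, 7.90 and 6.31 with si-SMAD3 spread more widely than those of 7.19, 6.51 and 6.24 with si-Control.

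Cytoskeletal and adhesion genes had 5 tested probe sets, 3 above and 2 below 0. TPM1, a tropomyosin of actin filaments, was at 12.08 ± 0.32 with si-SMAD3 and 12.29 ± 0.43 with si-Control (SD, n = 3), a difference of -0.21. CORO2B, an actin-binding coronin, differed by -0.06 from a control mean of 12.40. THSD4, which encodes a matrix protein of fibrillin microfibrils, had 3 tested probe sets at 0.43, 0.73 and 0.15. The middle one was at 5.08, 5.27 and 4.98 with si-SMAD3 and at 3.81, 4.68 and 4.66 with si-Control, so its groups did not overlap (adjusted p = 0.92 by limma). The probe set of FBXL22, an F-box protein gene, was below the filter.

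Membrane and traffic genes held their levels within the spread of the arrays. The 3 tested were RAB8B, a GTPase of vesicle traffic, at -0.12, the sorting nexin SNX1 of endosomes at 0.27, and HACD3, an enzyme of very long chain fatty acid synthesis. HACD3 was at 14.34, 14.04 and 14.27 with si-SMAD3 and at 14.31, 14.04 and 14.31 with si-Control, a difference of -0.00 (95% interval -0.43 to 0.43). The same experiments were low or high in both groups for that gene. The cell division genes were ZWILCH, a kinetochore subunit of the RZZ complex, at 0.05, and KIF23, the kinesin of the cytokinetic midbody, at -0.25. KIF23 was at 13.89, 13.58 and 13.87 with si-SMAD3 and at 14.12, 13.61 and 14.36 with si-Control, and the groups overlapped.

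Transcription and RNA genes had 4 tested members, 1 above and 3 below 0: TRIP4, a transcriptional coactivator, at 0.08, ZNF609 at -0.14, the exoribonuclease gene DIS3L at -0.32 and RPLP1, a protein of the ribosomal stalk, at -0.09. RPLP1 had the highest signal of the named members, at 16.50 ± 0.14 with si-SMAD3 and 16.59 ± 0.24 with si-Control (SD, n = 3). SKOR1, a corepressor that binds SMAD proteins, and the photoreceptor factor NR2E3 were below the filter. Genes of ubiquitin and protein turnover had 5 tested probe sets, 1 above and 4 below 0. The deubiquitinase USP3 was at 12.82 ± 0.26 with si-SMAD3 and 12.85 ± 0.28 with si-Control (SD, n = 3), and its other probe set differed by 0.03. FEM1B, a substrate receptor of a cullin ubiquitin ligase, differed by -0.14, the gamma-secretase subunit APH1B by -0.02 and the mitochondrial LACTB by -0.38.

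Of the remaining coding genes, GLCE, an epimerase of heparan sulphate synthesis, differed by -0.14, the membrane progestin receptor PAQR5 by 0.18 and LRRC49 by -0.23. C15orf61 differed by -0.15 and the ion exchanger SLC24A1 by -0.01. The probe set named TLE3 was at 3.96, 4.15 and 3.74 with si-SMAD3 and at 4.18, 4.54 and 4.55 with si-Control, a difference of -0.47 without overlap between the groups (adjusted p = 0.92 by limma), and that named MYO9A differed by -0.12. Both probe sets stand in the identifier order of the opposite strand.

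**Figure D5:**
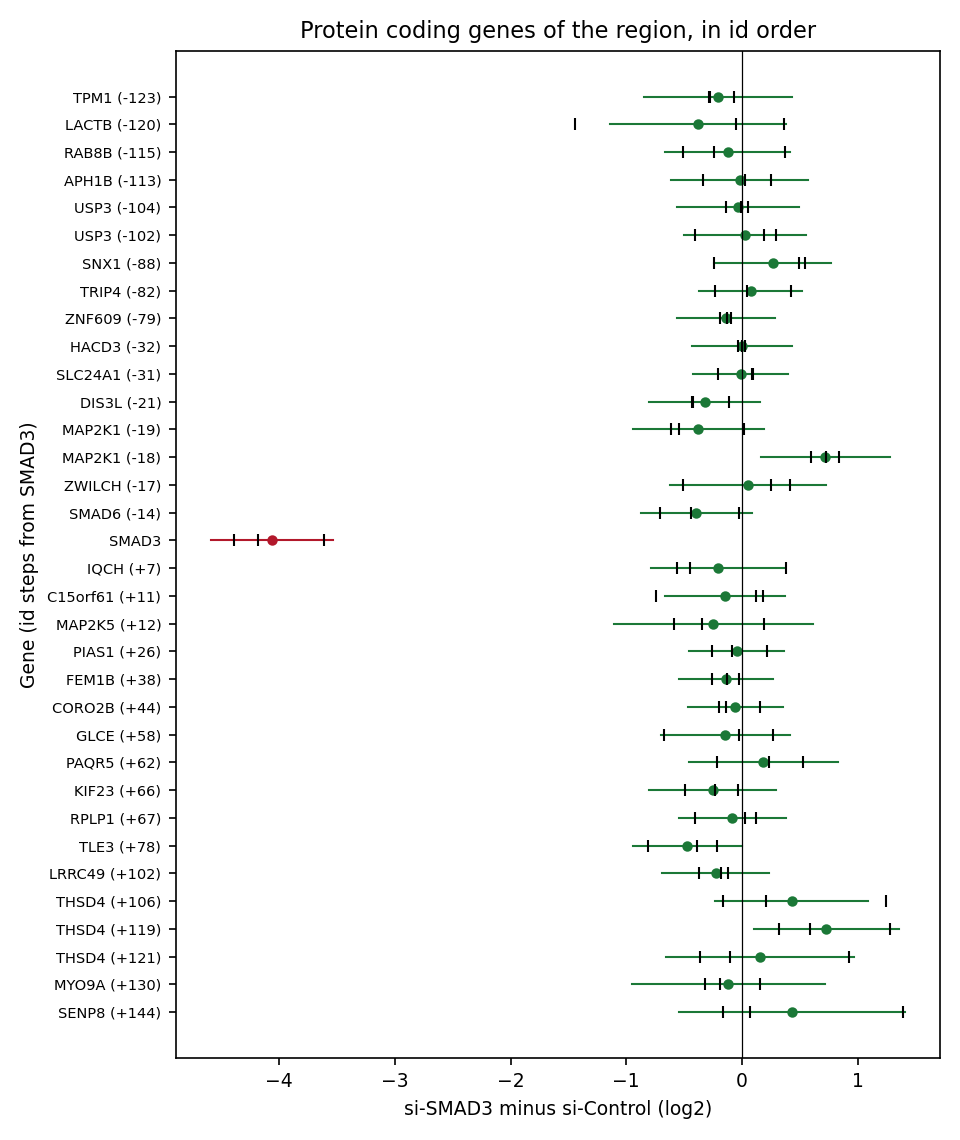
Difference between si-SMAD3 and si-Control (log2) for each tested protein coding probe set of the region in identifier order, with SMAD3 and SMAD6 for comparison; points are group differences, lines are 95% intervals from limma and black ticks are the 3 within-experiment differences. SMAD3 stands at -4.06, and the others lie between -0.47 (the probe set named TLE3, in the identifier order of the opposite strand) and 0.73.

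Named transcripts that are not protein coding had 17 tested probe sets, 12 above and 5 below 0, with a range from -0.53 to 0.39 and a smallest unadjusted p of 0.069. The U5 small nuclear RNAs of the spliceosome had the highest signals. RNU5A-1 was at 13.74, 14.07 and 13.46 with si-SMAD3 and at 13.69, 13.67 and 13.81 with si-Control, a difference of 0.03. RNU5B-1 was at 11.25, 11.45 and 11.29 with si-SMAD3 and at 10.98, 11.42 and 11.01 with si-Control, a difference of 0.19. These RNAs have near-identical copies that probe sets can share, as do the pseudogenes HNRNPA1P5 (0.24), RNA5SP399 (0.38) and RNU2-65P (0.04). The microRNA gene MIR4311 had the lowest named value, -0.53, and the long noncoding LINC01169, next to SMAD6 in identifier order, differed by 0.38. The senescence-associated SALRNA2 differed by 0.24 and PCAT29 by -0.15.

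The unnamed members held most of the extremes. The 121 tested had 71 above and 50 below 0, a median difference of 0.08 and a median size of 0.25, with a median signal of 5.22. The 49 named ones had 22 above and 27 below 0, a median of -0.02 and a median size of 0.15, with a median signal of 7.20. Signals of different probe sets are not transcript amounts, since probes differ in how well they bind. Over all tested probe sets the median sizes were 0.19 without a name and 0.17 with 1. One unnamed cluster with high signal, 24 steps after SMAD3 (TC1500007657.hg.1) and between SKOR1 and PIAS1, was at 14.34, 14.44 and 14.11 with si-SMAD3 and at 13.76, 13.84 and 14.07 with si-Control. Its difference of 0.41 came with groups that did not overlap and an adjusted p of 0.92 by limma. The 5 lowest differences were all in unnamed clusters, the one 67 steps before SMAD3 being described above. The cluster 114 steps after SMAD3 (TC1500007747.hg.1) was at 3.89, 4.46 and 3.87 with si-SMAD3 and at 4.87, 4.55 and 4.67 with si-Control, a difference of -0.62. The cluster 49 steps after it (TC1500007682.hg.1) was at 4.04, 4.50 and 4.47 with si-SMAD3 and at 4.69, 4.87 and 5.20 with si-Control, a difference of -0.58. Neither pair of groups overlapped, and both adjusted p by limma were 0.92. The cluster 16 steps before SMAD3 (TC1500007617.hg.1) differed by -0.67 with groups that overlapped. Among the 5 highest, the clusters 132 steps before SMAD3 (TC1500007501.hg.1) and 17 steps after it (TC1500007650.hg.1) differed by 0.91 and 0.76, also with overlap. The latter had a si-SMAD3 mean of 4.52 and a si-Control mean of 3.76, below the filter, so it too was tested only through its si-SMAD3 values. Another cluster among the THSD4 identifiers (TC1500007744.hg.1), at a mean of 12.07, differed by -0.03.

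Correlations between any 2 arrays ran from 0.980 to 0.985 over the probe sets tested. Array quality itself was not assessed. The first principal component (24.2% of the variance) had its highest scores in both replicate 2 arrays (64.8 in si-SMAD3 and 42.1 in si-Control, against -61.7 to -2.35 in the others). Within each experiment the score was higher in si-SMAD3: -2.35 against -61.7 in si-Control in the first, 64.8 against 42.1 in the second and -4.97 against -37.9 in the third. The part of this component in the members' values was not tested. Without both replicate 2 arrays, a comparison added after seeing the data, 0 members passed and 12 had an unadjusted p under 0.05 (9 higher, 3 lower, of 170), beside 5.65% of all tested. The cells carried the epithelial keratins KRT8 and KRT18 (means of 15.03 and 13.62) and the thyroid factors PAX8 (13.63) and FOXE1 (6.98). The keratin KRT19 was lower, at 5.07, and TG, TSHR, NKX2-1 and EPCAM were below the filter. The epithelial list averaged 9.42 with si-SMAD3 and 9.17 with si-Control over 4 genes, and the thyroid list 6.31 with si-SMAD3 and 6.22 with si-Control over 5 genes. The endothelial list averaged 3.92 with si-SMAD3 and 3.70 with si-Control over 3 genes. The immune list averaged 5.16 with si-SMAD3 and 5.31 with si-Control over 4 genes, led by CD68. The fibroblast list averaged 5.98 with si-SMAD3 and 5.81 with si-Control over 4 genes, all above the filter and led by COL1A1 (8.51). These averages include genes below the filter. Of those, EPCAM (3.81 with si-SMAD3, 3.13 with si-Control), TG (3.79 and 3.33), TSHR, PECAM1 and CDH5 were higher with si-SMAD3. NKX2-1 (3.67 and 3.87) and CD3E (3.70 and 4.12) were lower. The part of these small shifts in the members' values was not tested.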

How the data were processed

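The authors deposited 1 table of log2 values, 1 per probe set and array. Per the submitters' processing notes these came from RMA and Affymetrix Expression Console, named without versions, and no source used here names the annotation or the genome build. RMA equalizes the arrays, so a change common to all transcripts cannot be seen, and all arrays share a ceiling of 19.93, which no member reached. Whether a further transformation followed is not known, so log2 differences are on the scale of the deposited values. Precision is limited by the 6 arrays. Groups come from the sample titles.

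Probe sets were named where the platform table gives 1 symbol, updated through RefSeq. Control probe sets (2995) were left out, as were those with a mean below 3.93, the median of all. The test was limma 3.58.1 (lmFit, eBayes) in R 4.3.3, 2-sided, with Benjamini-Hochberg adjustment over 66776 probe sets and a threshold of 0.05; it was tested on simulated data. Promoters came from RefSeq tables, read with Python 3.11.15. The members, lists and naming rule (members within 10 steps, coding members, extremes, the highest signals, and unadjusted p under 0.01) were chosen with earlier results of these data known. No likeness of pattern to SMAD3 is given, since its values fall into 2 separate clusters.

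The design text places the 3 replicates at separate times, and the number was taken to mark the time. Deviations from group means correlated at 0.07, 0.08 and 0.01 for same-numbered arrays and between -0.08 and 0.02 for others, so the pairing rests on the design text.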

Additional observations from a re-analysis of the deposited data

How the results depend on the processing

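No member passed under any alternative run, and the smallest adjusted p of a member lay between 0.33 (intensity trend and robust variance) and 0.99. No probe set at all was called with the replicate block, the unmoderated statistic, any 1 array left out or both replicate 2 arrays left out. Since SMAD3 did not pass in those settings either, the 0 among the members there says nothing about the region. Members at an unadjusted p under 0.05 numbered 20 of 294 without the filter (5.1% of all probe sets in that fit), 1 of 69 with a mean of at least 6 (6.07% of all), 0 of 43 with 1 probe set per named gene (5.74% of all) and 5 of 54 within 50 steps (5.38% of all), and 8 to 13 of 170 with any 1 array left out (4.68% to 6.25% of all). The median difference was -0.0234 with 1 probe set per named gene, -0.0199 for named members, 0.0756 for unnamed members, 0.0692 within 50 steps, 0.0047 without both replicate 2 arrays and 0.0245 to 0.0556 with 1 array left out. The spread of this median between experiments was 0.0168, against 0.0355 for the median reported. The difference of SMAD3 was -4.06 with the replicate block (adjusted p = 0.18) and with an unmoderated statistic (adjusted p = 0.85), and -4.01 without both replicate 2 arrays (adjusted p = 0.82). It ran from -4.21 to -3.91 with 1 array left out, and under each of these the count of probe sets called by limma or the unmoderated statistic was 0 (1 in the analysis reported), while 4.68% to 6.25% had an unadjusted p under 0.05; fewer residual degrees of freedom or no pooled variance belong to these fits. Without the 70 probe sets at the ceiling, added after seeing the data, the adjusted p of SMAD3 was 0.0045. The block changed no other call. The 51 members checked further were picked by the naming rule and include clusters without a gene symbol. Of their 721 further values, all moved by less than the larger SD of the groups, and 44 changed sign. Under most settings that bound could not be passed, so it does not measure stability. Changing the filter, the block, the variance or the statistic leaves a difference as it was. Leaving out 1 array of a group always moves its mean by less than the group's SD. The 124 members below the filter have no test, and a drop from such levels could not be read.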

Other observations

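Genes of the opposite strand near SMAD3 were not members, and their values are given for comparison, taking the 3 nearest protein coding genes on each side by RefSeq order. After SMAD3, AAGAB, a cytosolic factor that helps assemble clathrin adaptors, was at 10.17, 10.34 and 10.22 with si-SMAD3 and at 10.27, 9.92 and 11.10 with si-Control, a difference of -0.18 (adjusted p = 0.99 by limma). CALML4, a calmodulin-like protein gene, differed by -0.36 and CLN6, an endoplasmic reticulum protein gene of lysosomal storage disease, by -0.01. Before SMAD3, SNAPC5, a subunit of the small nuclear RNA activating complex, differed by 0.01 and LCTL, a klotho-related gene, by 0.52 (adjusted p = 0.94 by limma). The groups overlapped for each of these 5, and the probe set named RPL4 was below the filter.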
